A study of Mus musculus with 8 samples.

Results

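Astrocyte nuclei (AST) of the mouse hippocampus numbered 1416 of the 11518 nuclei kept, or 12.3%. They were chosen by RNA alone. A nucleus was a member when at least 3 of the 10 genes Aqp4, Gja1, Atp13a4, Grin2c, Slc39a12, Etnppl, F3, Slco1c1, Fgfr3 and Gjb6 had a UMI (a unique molecular identifier, which counts 1 captured RNA molecule). Slc17a7 and Gad2, which mark excitatory (EXC) and inhibitory (INH) neurons, together could hold at most 1 UMI. The same limit applied to the sum of Mog, Csf1r and Pdgfra, which mark oligodendrocytes (ODC), microglia (MG) and oligodendrocyte precursors (OPC). Another 410 nuclei carried at least 3 of the 10 genes and were left out by those limits. The 4 libraries of the study, MF1, MF2, HF1 and HF2, held 186, 289, 574 and 367 members.

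The study asked what an excess of folic acid in the diet of the mother does to the brain of the offspring. Wild-type C57BL/6J dams, 8 weeks old by the sample labels and within a wider range of ages by the methods, ate a diet with 2 mg/kg (MF) or 20 mg/kg (HF) folic acid from 2 weeks before mating through pregnancy and lactation. Hippocampi of male pups at postnatal day 21 were used for a single-nucleus multiome assay, which reads RNA (GEX) and chromatin accessibility (ATAC) in the same nucleus. Each diet had 2 libraries, no gene was altered in any of them, and the number of pups in a library was not stated. P-values below therefore rest on a spread between libraries that may in part be technical. The edgeR fits given below took most of that spread from across genes or regions.

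Astrocytes are the glial cells that take up glutamate and GABA after synaptic release, buffer extracellular potassium and water, and are joined to each other by gap junctions. They supply neurons with lipids and lactate, cover synapses and blood vessels with fine processes, and in the dentate gyrus share part of their gene programme with the radial glia that act as neural stem cells. They also hold much of the folate and glycine-cleaving enzymes of the brain, among them the folate dehydrogenase Aldh1l1, which is used as a marker of the cell type.

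Astrocyte nuclei were small in RNA. Their median was 2758.5 UMIs and 1492 genes, against 7666 UMIs and 3038 genes in all other nuclei, and their median ATAC count was 13699.5 against 18862.5. The other nuclei were themselves unlike, with a median of 3444.5 UMIs in OPC nuclei and 14139.5 UMIs in excitatory neuron nuclei. Summed over astrocyte nuclei, libraries held 646891 to 1894747 UMIs and 2459688 to 7171170 ATAC counts, with MF1 the shallowest and HF1 the deepest. Doublet scores over 0.05 (Scrublet) were found in 8.40% of astrocyte nuclei and 16.2% of others. Pairs of libraries shared 8 to 20 cell barcodes among kept nuclei and 0 or 1 among astrocyte nuclei. Both MF1 and HF1 stood apart by RNA of other cells, described with the diet comparison.

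Gja1, which encodes the main astrocyte gap junction protein connexin 43, had a UMI in 87.3% of member nuclei, and 6.12% of excitatory neuron nuclei, which should lack it, had one too at a median depth of 14139.5 UMIs. The zinc transporter Slc39a12 was found in 76.5% of members, the thyroid hormone transporter Slco1c1 in 72.9%, the tissue factor gene F3 in 72.7% and the water channel Aqp4 in 65.7%. Gjb6, which encodes connexin 30, was found in 63.0%, the growth factor receptor Fgfr3 in 53.4%, the P-type ATPase Atp13a4 in 50.6%, the NMDA receptor subunit Grin2c in 41.4% and the phospholyase Etnppl in 21.7%. In excitatory neuron nuclei the range over the 10 genes was 0.275 to 6.12%. That class was defined by at least 3 UMIs of Slc17a7 and fewer than 3 of the 10 genes, so its shares were limited by the choice. These values describe the choice of nuclei and are no finding. At the border, 131 members carried exactly 3 of the genes, with a median of 2248 UMIs, and 142 nuclei that passed the other limits carried exactly 2, with a median of 2559.5. Gja1 was found in 67.2% of the former and 49.3% of the latter, Slco1c1 in 54.2 and 37.3%.

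Genes that the choice did not use carried the label too. All 20 further astrocyte markers of a list had at least 2-fold more RNA in astrocyte nuclei than in all other nuclei, where 10.4% of the 9963 genes with a mean level of at least 10 CPM (counts scaled to a common library total) did. Since nuclei were picked by RNA, this comparison is a description with no test. The glutamate transporter gene Slc1a2 stood at 7632, 8340, 6951 and 8419 CPM in astrocyte nuclei of MF1, MF2, HF1 and HF2 and at a mean of 337 CPM in other nuclei. Its relative Slc1a3 stood at 2385, 2121, 2205 and 2236 CPM against a mean of 79.3 CPM. For both genes every astrocyte value lay far above every value of other nuclei, and the libraries of the 2 diets overlapped. The lipid carrier gene Apoe held 7927, 6026, 7056 and 4627 CPM against 253 CPM. Aldh1l1 held 69.6, 112, 103 and 80.6 CPM against 2.80 CPM, and the filament gene Gfap 72.7, 67.6, 83.9 and 52.9 CPM against 7.54 CPM. S100b was the least selective of the 20: its mean was 17.2 CPM in other nuclei and 75.8 CPM in OPC nuclei, above the 46.6 to 60.7 CPM of astrocyte nuclei.

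**Figure D1:**
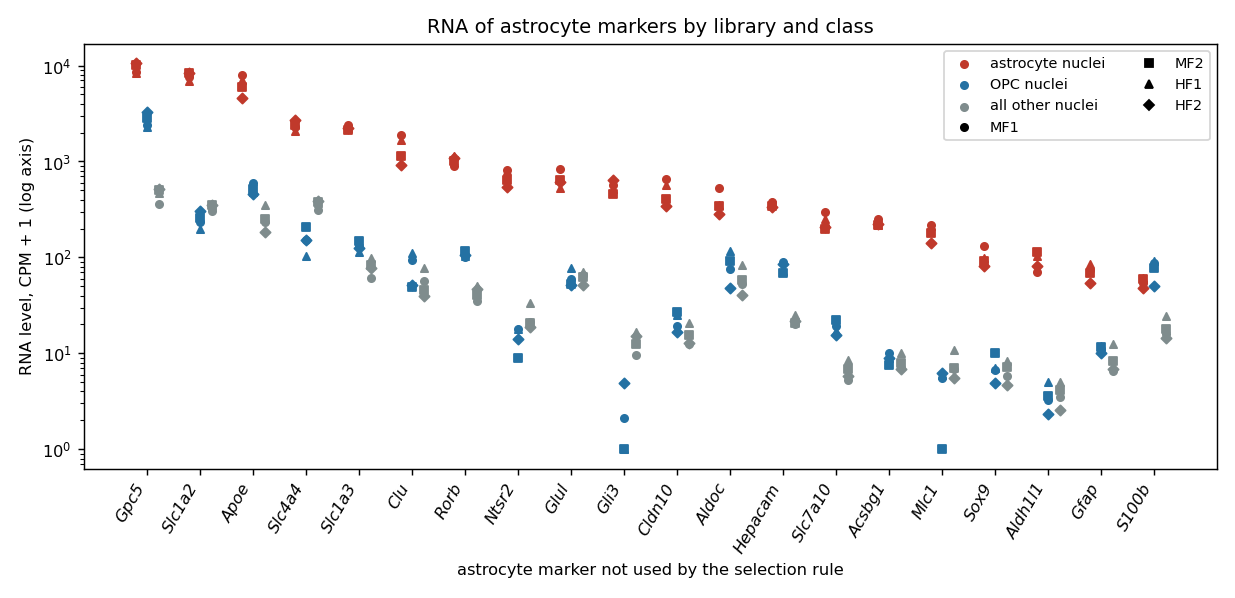
RNA levels (CPM + 1, log axis) of 20 astrocyte markers that the choice of nuclei did not use, in astrocyte, OPC and all other nuclei, 1 point per library. Levels are not corrected for gene length, so points compare within a gene; astrocyte points lie above those of all other nuclei for all 20 genes, and S100b is the gene where OPC points reach the astrocyte level.

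Markers of neurons, OPC, oligodendrocytes and microglia summed to less in astrocyte nuclei than in other nuclei, but not to 0. Slc17a7 and Gad2, which the choice limited, stood at 25.3 to 44.8 and 11.4 to 15.5 CPM in astrocyte nuclei, against means of 207 and 49.1 CPM in others. Of the 8 excitatory markers, the summed level was 661 to 1079 CPM in astrocyte nuclei and 1399 to 1921 CPM in others, and it was still 511 to 923 CPM without 3 clusters of astrocyte nuclei that also held genes of other cells. The 10 OPC markers summed to 114 to 168 CPM against 368 to 445 CPM, and the 6 oligodendrocyte markers to 366 to 616 CPM against 1584 to 2206 CPM. Of the 7 microglia markers the sum was 66.5 to 132 CPM against 229 to 502 CPM. The 5 endothelial markers summed to at most 12.4 CPM, the 5 ependymal markers to at most 2.11 CPM, and Kcnj8 and Tmem212, which mark pericytes and ependymal cells, had no UMI in the 1416 nuclei. Pdgfrb was the exception among vascular markers, with 71.1, 83.7, 105 and 41.1 CPM in astrocyte nuclei and 3.05 CPM in others, while the pericyte marker Rgs5 held at most 2.37 CPM.

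Outside the 10 genes of the rule, the 20 genes with the largest RNA difference included Slc1a3, with a log2 difference of 4.67 ± 0.31 (SD over 4 libraries, with 10 CPM added to both levels). The transcript Gm6145, the serine protease gene Htra1, the Hedgehog pathway factor Gli3 and Apoe followed it with 4.65, 4.65, 4.63 and 4.62. Others were Slc1a2, the lipid phosphatase Plpp3, the neurotensin receptor Ntsr2, Clu, Pla2g7, Prex2, the claudin Cldn10, the nuclear receptor Rorb, the glypican Gpc5, Bmpr1b, Phkg1, the phagocytosis receptor Mertk, the sphingosine phosphate receptor S1pr1 and Nwd1. Rorb varied least between libraries, with a difference of 4.32 ± 0.06, and Cldn10 most, with 4.33 ± 0.44.

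Uptake and metabolism of transmitters came as a group: 9 of the 11 genes listed (81.8%, against 10.4% of all genes) had at least 2-fold more RNA in astrocyte nuclei. Besides Slc1a2 and Slc1a3 these included the glutamine synthetase Glul (534 to 832 CPM against 61.9 CPM), the GABA transporter Slc6a11 (205 to 278 against 19.7 CPM) and the monoamine oxidase Maob (69.1 to 145 against 3.33 CPM), as well as Glud1, Slc38a3 and Abat. The glycine transporter Slc6a9 and Aldh5a1, which clears the GABA product succinic semialdehyde, differed by 0.38 and 0.73 on the log2 scale. Of 16 genes for ions, water and cell junctions with enough RNA, 10 (62.5%) were at least 2-fold higher. The comparison with OPC nuclei used genes found in at least 5% of astrocyte nuclei. There 7 of 10 transmitter and 9 of 16 ion genes were at least 2-fold higher, against 809 of 8029 genes, and 1 ion gene was lower. The inward rectifier potassium channel Kcnj10 held 131, 71.4, 101 and 67.2 CPM against 9.66 CPM, but 54.1 CPM in OPC nuclei. The cotransporter Slc12a2 went the other way, with 49.5 to 60.8 CPM in astrocyte nuclei and 115 CPM in others, a log2 difference of -0.99.

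Of 21 genes of lipid and cholesterol handling 17 (81.0%, against 10.4% of all genes) were at least 2-fold higher than in other nuclei. Only 10 of the 21 were at least 2-fold higher than in OPC nuclei. The acyl-CoA synthetase Acsl3 held 864 to 1124 CPM against 102 CPM and the desaturase Fads2 198 to 235 CPM against 21.3 CPM. The sterol genes Hmgcs1 and Npc1 and the lipoprotein receptor gene Lrp1 were among those below 2-fold, at log2 differences of 0.39, 0.64 and 0.98. Of 10 energy genes 7 were at least 2-fold higher, among them the brain glycogen phosphorylase Pygb (1.91 on the log2 scale). Of 13 genes of the synapse and matrix list 12 were, led by Mertk (4.19), Mfge8 (3.99), Sparcl1 (3.70) and the proteoglycan Bcan (3.61), and the exception was Gpc4 at -0.17.

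Of 17 receptor genes 10 (58.8%) were at least 2-fold higher in astrocyte nuclei, against 10.4% of all genes. Another 2 were at least 2-fold lower, a share near that over all genes (1090 of 9963). Compared with OPC nuclei, 8 were at least 2-fold higher and 2 at least 2-fold lower. The glutamate receptor gene Grm3 held 1028 to 1458 CPM against 127 CPM, whereas Grm5, the other receptor of the family on the list, held 312, 569, 519 and 646 CPM against 2233 CPM. The GABA receptor subunit Gabbr2 was lower too (89.2 to 159 against 314 CPM). The growth factor receptor gene Egfr held 237 to 352 CPM against 21.1 CPM.

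Of 29 transcription factors 26 (89.7%) were at least 2-fold higher in astrocyte nuclei than in other nuclei, against 10.4% of all genes. Gli3, Rorb, Prdm16, Rfx4 and Gli2 were highest by difference, at 4.63, 4.32, 3.80, 3.67 and 3.65 on the log2 scale, while the nuclear factor I genes Nfib and Nfix, which neurons use as well, differed by 0.53 and -0.04. Of 12 Notch, Hedgehog, BMP and thyroid hormone pathway genes 7 were at least 2-fold higher, with Bmpr1b at 4.28 and the thyroid hormone deiodinase Dio2 at 3.07. Of 7 genes for forebrain position 6 were. The shares of the last 2 lists were 58.3 and 85.7%. Against OPC nuclei, genes found in at least 5% of astrocyte nuclei were compared. There 22 of 30 transcription factors, 5 of 11 pathway genes and 5 of 7 position genes were at least 2-fold higher, against 809 of 8029 genes. Genes of reactive astrocytes were scarce: of 19 listed, 2 reached a mean level of 10 CPM, Lcn2, Timp1 and Steap4 had no UMI in the 1416 nuclei, and the complement gene C3 held at most 1.58 CPM. Mki67 and Top2a, which mark dividing cells, occurred together in 1 nucleus, in MF1.

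Part of the folate and one-carbon genes had more RNA in astrocyte nuclei. Of the 23 with a mean level of at least 10 CPM, 9 (39.1%) were at least 2-fold higher, against 10.4% of all genes. Another 2 were at least 2-fold lower, a share near that over all genes (1090 of 9963). Of the 19 found in at least 5% of astrocyte nuclei, 6 were at least 2-fold higher than in OPC nuclei. The glycine decarboxylase Gldc, the catalytic part of the glycine cleavage system that feeds the folate pool, held 172, 154, 173 and 169 CPM against 5.93 CPM. The cystathionine synthase Cbs, the entry to transsulfuration, held 136, 154, 101 and 125 CPM against 4.35 CPM. Both were far above the other nuclei in every library. With Aldh1l1, Cth, Phgdh, Psat1, Ggh, Ahcyl1 and Mat2a they made up the 9. Mthfd1l, the mitochondrial formate-producing enzyme, held 3.09 to 16.6 CPM against 35.0 CPM, and Ahcyl2 238 to 295 CPM against 608 CPM. The methionine synthase Mtr and the reduced folate carrier Slc19a1 differed by 0.10 and 0.14. Slc19a1 had too few counts in astrocyte nuclei for the diet test, and the 10 CPM added to both levels draws such genes toward 0.

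Accessibility was measured apart from the RNA that chose the nuclei and was therefore tested. Counts in peaks over a gene and the 2 kb before it were summed per library and compared by edgeR's quasi-likelihood test with the library as a block. A gene was called at a false discovery rate (FDR) under 0.05 and a difference of at least 1.5-fold. Of 22627 genes 15% were called higher in astrocyte than in all other nuclei and 29.4% lower. All 10 rule genes were called higher. Over Gja1 (chr10:56377330-56402513 in mm10, plus strand) the ATAC level was 29.4, 34.8, 36.3 and 42.4 CPM of ATAC counts in astrocyte nuclei of MF1, MF2, HF1 and HF2 and 5.12 to 5.82 in other nuclei. The log2 difference was 2.84 ± 0.16 (SE, FDR 3.13e-15). Over Slc39a12 it was 2.32 ± 0.26 (FDR 8.96e-09), over Atp13a4 2.14 ± 0.08 (FDR 3.26e-19) and over Aqp4 2.70 ± 0.11 (FDR 1.42e-18). The range over the 10 genes was 1.99 in Grin2c to 4.22 in Etnppl, and for no rule gene did any astrocyte library overlap any library of other nuclei.

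Of the 20 other astrocyte markers 18 were called higher, with a median of 1.71 against -0.02 over all genes. The serine and alanine transporter Slc7a10 had the largest difference, 3.88 ± 0.08, from 134 to 153 ATAC CPM in astrocyte nuclei and 8.94 to 11.4 in others. Mlc1, Aldoc, Gli3 and Apoe followed with 3.36, 3.06, 2.90 and 2.81. The exceptions were S100b (0.14 ± 0.14, FDR 0.364) and Gpc5 (0.30 ± 0.06), whose RNA was higher by 1.26 and 4.31. Gpc5 spans chr14:115092215-116525179, and of its 32 tested regions 5 were called higher and 3 lower. Among the 20 genes with the largest RNA difference 19 were called higher, Gpc5 being the other.

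Against OPC nuclei (824 nuclei with at least 3 of 10 OPC genes and fewer than 3 of the rule genes), another class of glia, 13% of 19317 genes were called higher in astrocyte nuclei and 15% lower. All 10 rule genes and 17 of the 20 markers were again called higher and all 10 OPC markers lower, with a median of -2.37 for the latter, of which the choice of OPC nuclei used the RNA. Gli3 was higher by 4.11 ± 0.11 and Mlc1 by 4.62 ± 0.26. S100b was called lower (-1.17 ± 0.16), Hepacam stayed under the fold minimum (0.51) and Gpc5 was at -0.06. Kcnj10 and Kcnj16 show how the reference matters: they were called higher than other nuclei (1.97 and 1.63) and not called against OPC nuclei (0.28 and -0.19).

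**Figure D2:**
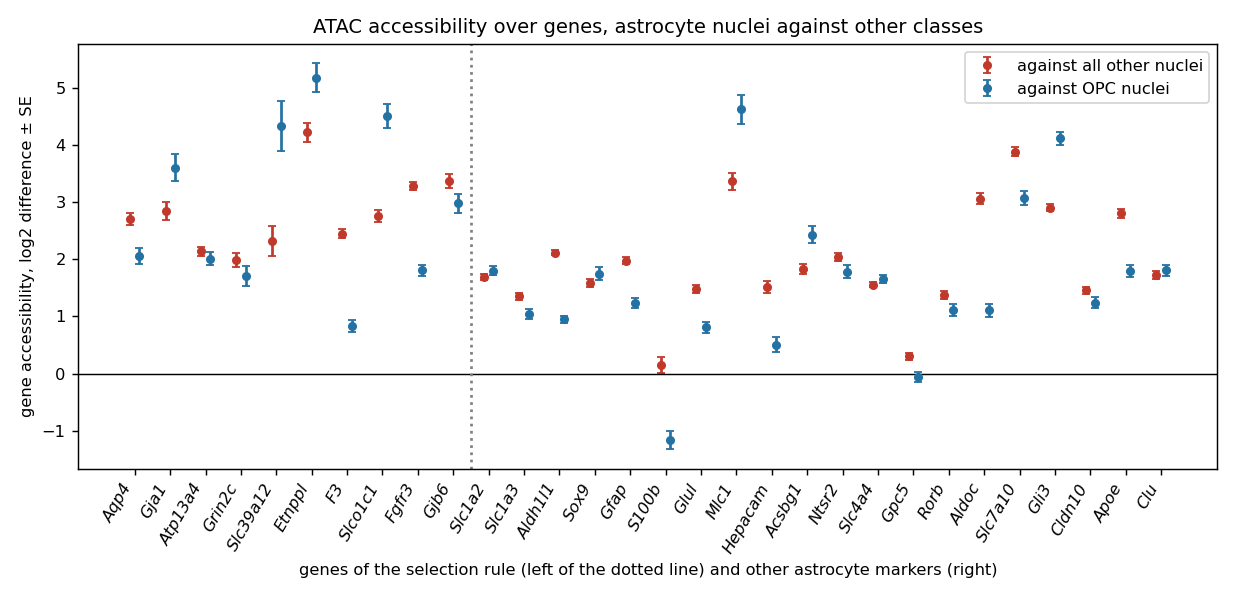
Log2 difference in gene accessibility between astrocyte nuclei and all other nuclei or OPC nuclei, for the 10 genes of the rule and 20 other astrocyte markers. Points are estimates over 4 libraries and lines are SE; all but S100b and Gpc5 were called higher than in other nuclei, and S100b lies below 0 against OPC nuclei.

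By role, all 11 transmitter genes were called more accessible than in other nuclei, Maob most (3.93) and Aldh5a1 least (0.63), and 7 of 11 were called against OPC nuclei. Over all genes 15% were called higher than in other nuclei and 13% higher than in OPC nuclei. Of 17 ion, water and junction genes 13 were called higher, or 11 under another scaling (RLE size factors). Lipid genes numbered 16 of 21, energy genes 11 of 13 (10 under the other scaling) and synapse and matrix genes 11 of 16, with none lower. Called higher than in OPC nuclei were 8 of 17 ion, 10 of 21 lipid, 9 of 13 energy (1 lower) and 8 of 15 synapse and matrix genes. The glycogen regulator Ppp1r3g (4.33) and the pyruvate dehydrogenase kinase Pdk4 (3.27) led the energy genes with little RNA, at most 27.8 and 19.5 CPM. Of 31 transcription factor genes 28 were called higher, and those not called were Nfix (0.53), Zbtb20 (0.42) and Glis3 (0.27). Against OPC nuclei 21 of the 31 were called higher. Of 19 receptor genes 9 were higher (8 under the other scaling and 6 against OPC nuclei) and 1 lower, which was Grm5 (-0.71), also lower in RNA. Of 14 pathway genes 9 were higher (8 under the other scaling and 5 against OPC nuclei) and 1, the Hedgehog inhibitor Hhip, lower. All 7 position genes were higher, 6 of them under the other scaling and 5 against OPC nuclei. Of 16 reactive genes 2 were higher (Gfap and Vim) and 4 lower, shares close to those over all genes, while against OPC nuclei 6 of 14 were called higher (42.9%, against 13% of all genes) and 3 lower.

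Among the 38 folate and one-carbon genes 9 were called higher and 5 lower, against 15 and 29.4% of all genes. The higher ones were Cbs (2.76 ± 0.08), the aminomethyltransferase Amt (2.63 ± 0.24), Aldh1l1 (2.11 ± 0.05), Cth (1.74), Phgdh (1.36), Gldc (1.31), Ahcyl1 (1.07), the proton-coupled folate transporter Slc46a1 (0.91) and Psat1 (0.81). Over Cbs the astrocyte libraries held 103, 128, 112 and 117 ATAC CPM and the others 17.2 to 20.7. Over Amt they held 28.2, 18.3, 18.8 and 18.6 against 2.60 to 4.70, although its RNA was low in both (10.8 to 17.4 and 7.34 CPM). Ftcd, Bhmt, Mthfd1l, Mthfs and Dmgdh were called lower, and the RNA of Bhmt, Ftcd and Dmgdh was at or under 0.79 CPM in every astrocyte library. Markers of excitatory neurons were called lower in 7 of 8 cases, of oligodendrocytes in 5 of 6 and of microglia in 5 of 7, with none higher. Other lists were mixed: 3 of 10 OPC markers were called higher and 2 lower, 2 of 4 pericyte markers higher and 2 lower, and 2 of 5 tested choroid plexus markers higher and 2 lower.

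Single regions were compared in the same way. Of 154768 regions with a peak in all 4 libraries 22.9% were called higher in astrocyte nuclei and 37.6% lower. The balance depended on the scaling, because the median difference over all regions was -0.87: 37.8% of called regions were higher with TMM factors, 26% with RLE factors and 16.7% with none. Regions called lower lay over 2 kb from any gene start in 93.8% of cases, regions called higher in 67.5%, and all tested regions in 86.1%. Of the rule genes 7 had a tested region over their start, and all 7 regions were called higher.

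The region over the Gja1 start (chr10:56376821-56377681) held 13.1, 16.8, 21.6 and 23.4 ATAC CPM in astrocyte nuclei of MF1, MF2, HF1 and HF2 and 1.08 to 1.73 in other nuclei, a log2 difference of 4.42 ± 0.22. The region over the Grin2c start (chr11:115266701-115267555) held 31.6, 28.7, 31.1 and 32.3 against 3.36 to 4.08, a difference of 3.77 ± 0.17. The starts of Slco1c1, Gjb6, Fgfr3, Slc39a12 and F3 followed with 4.97, 4.04, 3.79, 3.58 and 3.24, and no library of other nuclei reached an astrocyte value at any of the 7. Aqp4, Atp13a4 and Etnppl had no tested region over the annotated start. Their calls came from regions in the gene or the 2 kb before it. Of these, 3 of 5, 6 of 10 and 1 of 1 were called higher, and 1 of those of Atp13a4 was called lower. The bases that precede the RefSeq starts of Gja1 (chr10:56377050-56377299, plus strand) and Grin2c (chr11:115267244-115267493, minus strand) lie inside these regions and are shown because they carry the opened promoters, from RefSeq on GRCm38. Capitals mark the letters AGGTCA (called ROR here, after the nuclear receptor), TTGGCA (nuclear factor I, NFI) or CAGATG (NeuroD-type), on either strand. AGGTCA and TTGGCA are only part of the sites of these factors, so a match is not a whole site and does not single out a factor. For ROR only AGGTCA was searched.
Gja1: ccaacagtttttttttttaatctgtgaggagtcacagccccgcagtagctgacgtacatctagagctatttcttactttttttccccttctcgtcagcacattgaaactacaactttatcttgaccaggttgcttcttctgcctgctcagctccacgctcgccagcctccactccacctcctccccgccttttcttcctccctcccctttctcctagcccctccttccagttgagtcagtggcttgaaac
Grin2c: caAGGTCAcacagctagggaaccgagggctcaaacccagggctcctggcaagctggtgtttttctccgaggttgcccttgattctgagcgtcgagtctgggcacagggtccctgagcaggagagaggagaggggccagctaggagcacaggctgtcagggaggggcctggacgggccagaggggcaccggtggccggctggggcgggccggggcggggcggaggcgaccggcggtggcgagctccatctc
The Gja1 promoter held none of the 3 motifs and the Grin2c promoter 1 copy of AGGTCA. These letters occurred in 16.3% of 32851 RefSeq promoters of 300 bases.

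The 10 regions with the smallest FDR in each direction lay away from the rule genes. The leading higher region (chr16:18083116-18084047) lay in an intron of the proline dehydrogenase gene Prodh and held 134, 128, 131 and 124 ATAC CPM against 3.40 to 7.56, a difference of 5.25 ± 0.15. Others lay in introns of Slc7a11 (chr3:50421525-50422433), the cystine and glutamate exchanger, of Dock8 (chr19:25144282-25145280) and of Capn2 (chr1:182483422-182484355), at 5.19, 5.41 and 5.02, and 6 lay between genes. These places are those of the middle base. The Capn2 region also overlapped the start of Gm37885, and a region between genes (chr4:154654958-154655899) that of Gm13110. In all 10 the libraries of the 2 classes did not overlap, and no diet difference was called. The 10 leading lower regions included regions in introns of Dlgap2 and Camk2b, genes of the postsynaptic density of neurons. The Camk2b region lay 130 bases from a start of that gene. In the Camk2b region (chr11:6065289-6066232) astrocyte nuclei held 4.63, 7.33, 4.89 and 3.57 ATAC CPM and others 36.1 to 38.9. That difference was -2.17 ± 0.19, and -4.36 without the nuclei of 3 clusters that also held genes of other cells. The middle 300 bases of 2 higher regions are shown, on the plus strand of GRCm38, as examples of the motifs that follow.
Prodh intron, higher (chr16:18083432-18083731): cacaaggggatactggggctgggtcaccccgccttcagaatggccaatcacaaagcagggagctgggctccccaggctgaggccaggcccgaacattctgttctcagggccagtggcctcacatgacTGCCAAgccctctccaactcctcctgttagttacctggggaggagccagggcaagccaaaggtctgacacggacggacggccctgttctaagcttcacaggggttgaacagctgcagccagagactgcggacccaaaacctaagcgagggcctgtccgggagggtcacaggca
Dock8 intron, higher (chr19:25144632-25144931): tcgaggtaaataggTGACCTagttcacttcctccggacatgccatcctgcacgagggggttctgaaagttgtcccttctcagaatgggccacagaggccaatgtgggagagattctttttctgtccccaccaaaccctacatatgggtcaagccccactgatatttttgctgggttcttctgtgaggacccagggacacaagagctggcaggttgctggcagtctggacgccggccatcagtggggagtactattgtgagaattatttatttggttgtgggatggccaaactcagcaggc
The Prodh region held 1 copy of the NFI letters TTGGCA and the Dock8 region 1 copy of the ROR letters AGGTCA. The higher region next to Prodh by FDR (chr16:25465294-25466221), not shown, held none of the 3 motifs in its middle 300 bases.

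Motifs were searched on both strands in the middle 300 bases of the 133287 tested regions over 2 kb from a gene start. The ROR letters AGGTCA were found in 15.1% of regions called higher, 10.3% of all and 7.82% of regions called lower. The NFI letters TTGGCA were found in 30.9, 26.7 and 26.3%. Whether factors of any of these families occupy the regions was not measured. The NeuroD-type letters CAGATG went the other way, in 23.6% of higher, 38.6% of all and 47.3% of lower regions. The AP-1 letters TGANTCA (9.45, 15.2 and 18.5%), the MEF2 letters TATTTATA (0.997, 2.37 and 3.03%) and the SOX letters AACAAT (12.0, 15.2 and 16.5%) were also less frequent in higher regions. Small or no differences were seen for RFX (GTTGCC, 14.0, 12.5 and 12.5%), TEAD (GGAATG, 16.7, 17.1 and 17.5%), LHX (TAATTA, 9.19, 9.55 and 9.82%) and EGR (GTGGGCG, 2.86, 2.64 and 2.90%). The RFX and NFI letters can share 4 bases. Base composition moved with the classes, with a median of 51.0% G and C in higher, 47.0% in all and 45.3% in lower regions, and its part in these shares was not tested.

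**Figure D3:**
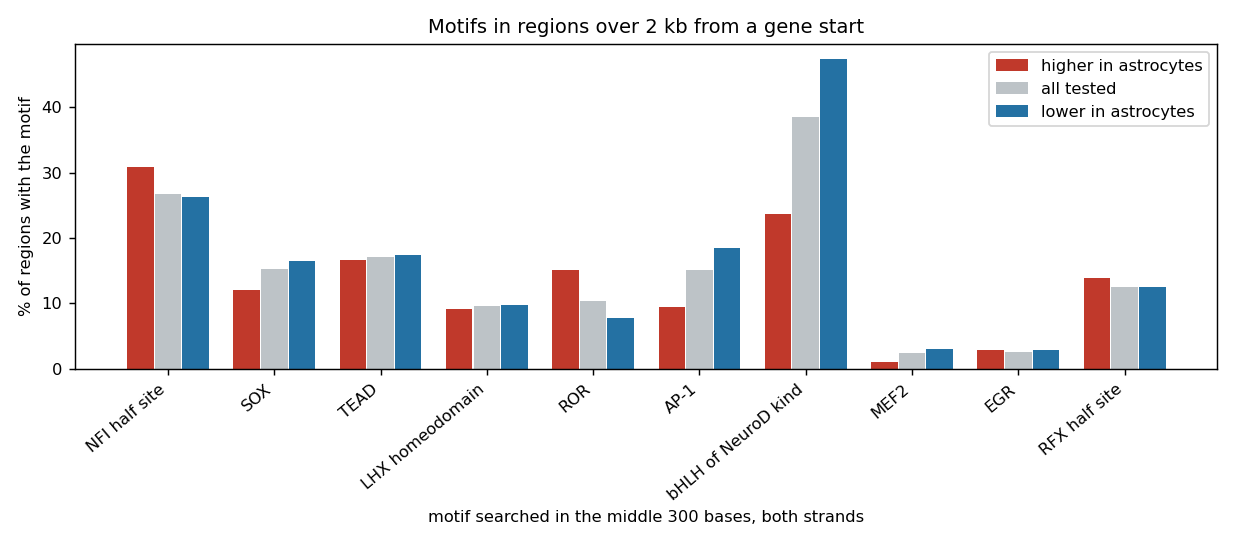
Percent of regions over 2 kb from a gene start whose middle 300 bases hold each motif, for regions called higher in astrocyte nuclei (23870), all tested (133287) and called lower (54578). The NeuroD-type letters CAGATG are in 23.6% of higher and 47.3% of lower regions, and the ROR letters AGGTCA in 15.1 and 7.82%.

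Astrocyte nuclei were not uniform. Leiden clustering of their RNA at resolution 0.5 gave 8 clusters. Numbers 0, 1, 2 and 3 held 308, 312, 263 and 339 nuclei, with nearly the same summed level of the 20 astrocyte markers (41436 to 44646 CPM). Numbers 4, 6 and 7 did not look like astrocytes alone. Cluster 4 (51 nuclei) was led by the neuronal genes Dpp10 and Cntnap2 and cluster 6 (67 nuclei) by Sema3c and Cntnap5a. Their median depth was 12506 and 7336 UMIs, 82.4 and 98.5% of their nuclei had a doublet score over 0.05, and the astrocyte markers summed to 10030 and 16187 CPM. Cluster 7 (29 nuclei, 21 of them in HF1 and none in MF1) was led by Ptgds (8207 CPM against 50.2 CPM in other astrocyte nuclei) and Bnc2, genes of fibroblasts of the brain coverings. The 147 nuclei of these clusters met the rule and stayed in. Without them 3604 genes were called more and 7227 less accessible than in other nuclei, in place of 3399 and 6652, and 2689 and 3451 against OPC nuclei, in place of 2513 and 2902. Of single regions 29368 were called higher and 80108 lower than in other nuclei, in place of 35383 and 58198. The diet tests of RNA and of regions called 0 with and without them, and the share of astrocyte nuclei and the joint diet fit are given below both ways.

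The genes that lead a cluster are a description, since they made it. Cluster 0 was led by the sulfotransferase Hs3st3a1, Serpinf1, Vegfc and the retinaldehyde dehydrogenase Aldh1a1 (822 against 219 CPM), and it had the most Gfap (145 CPM) among clusters 0 to 3. Cluster 1 was led by Il33, the channel Trpm3 (5534 against 1678 CPM), Meis1, Lrig1 and Luzp2 (2693 against 908 CPM). Cluster 2 was set off by small differences, led by Adamts20 (338 against 162 CPM). Cluster 3 was led by Ttr and Thbs4, then by the secreted inhibitor Cst3 (16344 against 6897 CPM). The place of Ttr (1025 against 40.3 CPM) rested on few nuclei, since 590 of its UMIs lay in 1 nucleus of HF1, and it was found in 16.8% of the nuclei of cluster 3 and 9.19% of the others. By library it was found in 3.76, 0, 25.6 and 0.545% of the astrocyte nuclei of MF1, MF2, HF1 and HF2. HF1 gave 206 of the 339 nuclei of cluster 3, and the part of this in the place of Ttr was not tested. Cluster 3 differed by library, with 33.9, 15.6, 35.9 and 6.81% of the astrocyte nuclei of MF1, MF2, HF1 and HF2, so the 2 libraries that stood apart by RNA of other cells held most of it.

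Cluster 5 was small, 47 nuclei with 7 to 20 in each library. It was led by the adhesion receptor gene Adgrv1 (1715 against 44.8 CPM) and by Gm29521, Kcnip1 and Veph1. Of 8 radial glia markers 3, Frzb, Riiad1 and Lpar1, were among its 30 leading genes, so it is called radial glia-like. The name rests on these 3 markers, which stood at ranks 13, 24 and 22. Frzb held 28.2, 83.5, 127 and 83.4 CPM in MF1, MF2, HF1 and HF2. Hopx held 312 CPM, while Nes had no UMI in it. Its astrocyte markers summed to 24013 CPM, its median number of rule genes was 3, and no nucleus had a doublet score over 0.05. Its excitatory markers summed to 1469 CPM, above the 535 to 768 CPM of clusters 0 to 3. That sum was also above the 995 CPM of cluster 4 and below the 1659 CPM of cluster 6.

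Accessibility had no part in the clustering and was therefore tested. Each cluster was compared with all other astrocyte nuclei. In cluster 0, 0.224% of 17447 genes were called higher, and 5 of its 27 tested leading genes were: Hs3st3a1 (1.02 ± 0.14), Id3 (0.96 ± 0.15), Nrp2 (0.88 ± 0.11), Zfhx4 (0.69 ± 0.14) and 8030451A03Rik (0.62 ± 0.12). In cluster 1, 0.135% of 17059 genes were called, and 3 of 28 leading genes were, namely Gm29683 (1.07 ± 0.22), Meis1 (0.81 ± 0.21) and Luzp2 (0.59 ± 0.16). In cluster 5, tested although it was smaller than planned, 0.248% of 16515 genes were called, and 8 of 26 leading genes were. These were Lpar1 (2.25 ± 0.32), Cdk6 (2.01 ± 0.29), Siah3 (1.56 ± 0.20), Kcnip1 (1.42 ± 0.20), Cfap54 (1.41 ± 0.32), Adgrv1 (1.37 ± 0.34), Shroom3 (1.02 ± 0.25) and Slc2a9 (0.90 ± 0.22). Of the 3 naming markers only Lpar1 was called, while Frzb (2.02 ± 0.61, FDR 0.131) and Riiad1 (0.80 ± 0.46, FDR 0.719) were not. Over Lpar1, a lysophosphatidic acid receptor gene, cluster 5 held 153, 174, 154 and 132 ATAC CPM and the other astrocyte nuclei 30.3 to 32.2. All 26 leading genes of cluster 5 lay above 0, with a median of 1.03, as did 24 of 27 in cluster 0 (0.44) and 25 of 28 in cluster 1 (0.33). In clusters 2 and 3 no leading gene was called. When clusters 4, 6 and 7 were left out of the reference, genes called higher numbered 12 in place of 39 in cluster 0, 20 in place of 23 in cluster 1 and 55 in place of 41 in cluster 5. Genes called lower numbered 11 in place of 170, 52 in place of 200 and 58 in place of 50. Leaving out single libraries gave 57 to 322, 56 to 149 and 14 to 66 genes in both directions together.

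**Figure D4:**
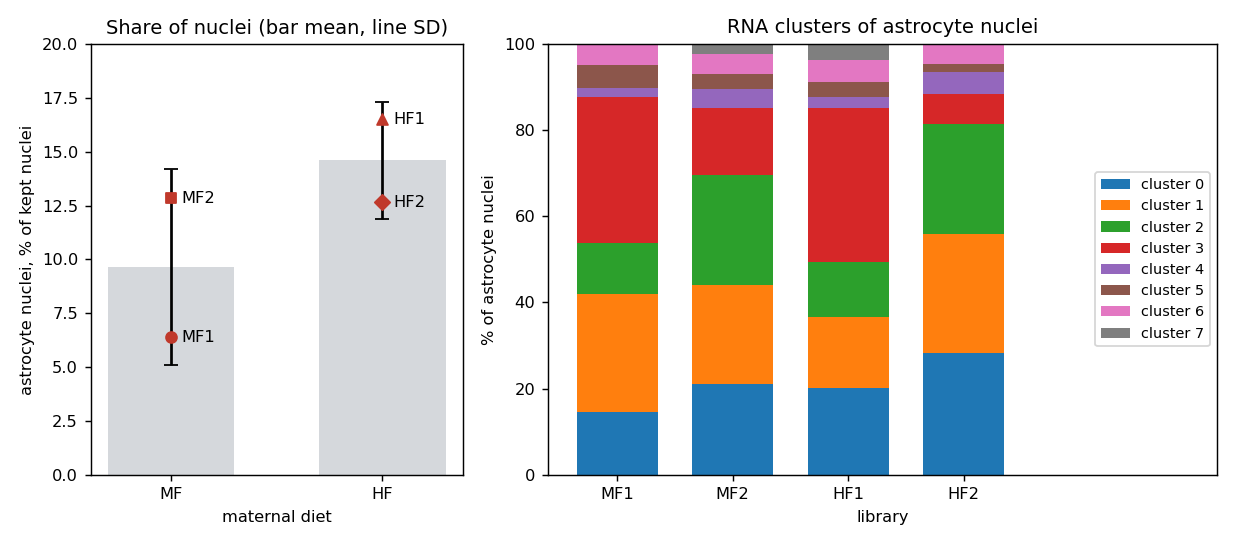
Left, astrocyte nuclei as percent of kept nuclei in each library, with the mean (bar) and SD (line) of each diet; right, percent of the astrocyte nuclei of each library in each RNA cluster. MF1 has the lowest share (6.42%), and cluster 3 takes 33.9 and 35.9% in MF1 and HF1 against 15.6 and 6.81% in MF2 and HF2.

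The share of astrocyte nuclei in all kept nuclei was 6.42 and 12.9% in MF1 and MF2 and 16.5 and 12.7% in HF1 and HF2, so MF2 lay just above HF2 and the groups overlapped. The means were 9.63 ± 4.55% in MF and 14.6 ± 2.73% in HF (SD, n = 2), and the difference of 4.96 points gave p = 0.667 in an exact two-sided permutation test, whose smallest possible p was 0.33. The overlap depended on which nuclei were counted. Without clusters 4, 6 and 7, MF1 and MF2 had shares of 5.97 and 11.38%, and HF1 and HF2 of 14.66 and 11.43%. Counted over all deposited nuclei, the MF libraries had 5.30 and 9.75% and the HF libraries 13.5 and 10.2%. In both cases each HF library lay above each MF library, with a difference of 4.37 points and p = 0.33, the smallest that the exact permutation test allows. Without MF1 the difference was 1.75 points. A share of nuclei does not tell more astrocytes from fewer nuclei of other cells.

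RNA of astrocyte nuclei showed no called difference between HF and MF. Of 10578 genes 0% were called at FDR under 0.05 and at least 1.2-fold by edgeR's quasi-likelihood test on library sums, 217 (2.05%) had an unadjusted p under 0.05, and DESeq2 called 0 as well. The HF and MF libraries did not overlap for 26.7% of genes. The smallest unadjusted p belonged to Reln, with 7.73 and 12.4 CPM in MF1 and MF2 and 42.2 and 34.8 CPM in HF1 and HF2. Its log2 difference was 1.89 ± 0.35 with an adjusted p of 0.999993. The next were Ndst4 (2.38), Epha6 (1.44), Fras1 (1.46), Mlip (1.21), Htr2c (2.52), Mtrf1l (1.54), Gpx7 (1.86), Synpr (0.89) and Cnksr2 (1.09), none of which passed the adjustment. All 10 were higher in both HF libraries than in both MF libraries, as were 1346 of all 10578 genes. Picking them by p-value made this likely. Reln, Synpr, Epha6 and Cnksr2 are known from neurons, and without clusters 4, 6 and 7 Epha6, Cnksr2 and Synpr were at -0.27, -0.05 and 0.01, while Reln, Ndst4, Mlip and Htr2c no longer passed the filter on low counts. Fits that left out 1 library called 0 genes without MF1, 61 without MF2, 15 without HF1 and 1 without HF2. In these fits, and in those that leave out 1 library below, 1 diet has a single library, which is assumed to vary like the libraries of the other diet. A test that treated nuclei as replicates called 17, among them 4 haemoglobin genes and Ttr.

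Genes of other cells set MF1 and HF1 apart. The haemoglobin gene Hba-a1 held 526, 116, 103 and 99.6 CPM in astrocyte nuclei of MF1, MF2, HF1 and HF2, and Hbb-bs 1201, 266, 231 and 240 CPM. MF1 was thus high and the other libraries were close together. All 4 tested erythroid genes were lower in HF at an unadjusted p under 0.05 (log2 differences -1.47 to -1.58) and none was called. Other nuclei of MF1 also carried more of it, 1873 CPM summed over the 5 erythroid markers against 254 to 568 CPM in the other libraries. Ttr, the transthyretin gene of the choroid plexus, had 11, 0, 1013 and 2 UMIs, of which 590 lay in 1 nucleus of HF1, and was found in 147 of 574 HF1 nuclei. The remaining choroid plexus markers were near 0, with at most 3.17 CPM each. Markers of microglia and oligodendrocytes had a higher estimate in HF in 4 of 4 and 5 of 5 tested cases, with medians of 0.62 and 0.53. Over all genes 5223 of 10578 estimates were above 0. These lists were led by C1qa with 4.64, 5.71, 21.6 and 11.9 CPM and Mbp with 148, 126, 191 and 331 CPM. The diets did not overlap for 2 genes of each list (50 and 40%, against 26.7% of all genes). In each list 1 gene had an unadjusted edgeR p under 0.05, and none was called. Without clusters 4, 6 and 7 the 6 oligodendrocyte markers summed to 411, 279, 469 and 232 CPM in MF1, MF2, HF1 and HF2, in place of 430, 366, 616 and 610 CPM, so that the diets overlapped. The 7 microglia markers then summed to 68.2, 71.0, 138 and 92.4 CPM, still higher in both HF libraries. The part of these in other differences was not tested.

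Astrocyte markers outside the rule were close between the diets. Of the 20 further markers 13 had a lower and 7 a higher estimate in HF, the median was -0.04, and none had an unadjusted p under 0.05. Slc1a2 was at -0.01 ± 0.35 and Gfap at 0.00. Of the 10 rule genes 9 had a lower estimate, with a median of -0.22, but the rule had used them. Libraries of the 2 diets did not overlap for 5 of these 10 (50%, against 26.7% of all genes), all lower in HF, and none had an unadjusted p under 0.05. Of the 11 transmitter genes 10 had a lower estimate (median -0.14), libraries did not overlap for 3 (27.3%, against 26.7% of all genes), and none had an unadjusted p under 0.05. Of 30 transcription factors tested 1, Hes1, did, with 54.1 and 58.0 CPM in MF against 36.4 and 35.6 CPM in HF (-0.62 ± 0.26) and was not called. The matrix gene Tnc was the only one of 14 synapse and matrix genes, with 142 and 147 CPM in MF against 264 and 188 CPM in HF (0.66 ± 0.26) and was not called either.

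Folate and one-carbon genes bear on the diet most directly. Of 38, 24 had enough counts for a test, 9 with a higher and 15 with a lower estimate in HF, and the median was -0.08. HF and MF libraries did not overlap for 10 of the 24 (41.7%), 4 higher and 6 lower in HF, against 26.7% of all genes. Only the sarcosine dehydrogenase Sardh had an unadjusted p under 0.05. It held 4.64 and 5.71 CPM in MF and 12.1 and 13.4 CPM in HF, from 3 to 23 UMIs a library, a difference of 1.27 ± 0.52 (edgeR adjusted p 0.999993). Aldh1l1 held 69.6 and 112 CPM in MF and 103 and 80.6 CPM in HF, a difference of 0.01 ± 0.30. Cbs held 136 and 154 against 101 and 125 CPM (-0.33 ± 0.27), and Gldc 172 and 154 against 173 and 169 CPM (0.11 ± 0.25). The folate receptor Folr1, the carrier Slc19a1 and Tyms were among those that had too few counts to be tested.

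**Figure D5:**
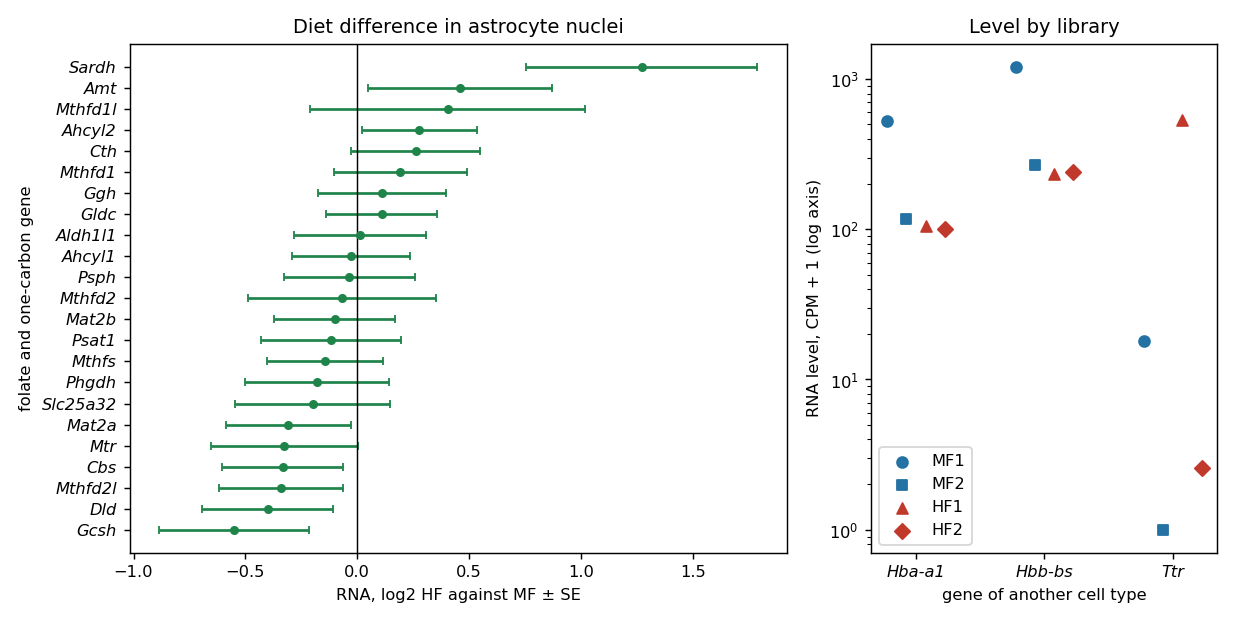
Left, log2 difference of RNA in astrocyte nuclei between HF and MF with its SE for 23 of the 24 folate and one-carbon genes tested; right, CPM + 1 (log axis) of 2 haemoglobin genes and Ttr in each library. Estimates run from -0.55 (Gcsh) to 1.27 ± 0.52 (Sardh), while MF1 is high for haemoglobin and HF1 for Ttr.

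Whether the diet difference of astrocyte nuclei was unlike that of the other nuclei was tested in a joint fit. Of 17202 genes 0.105%, or 18, were called at FDR under 0.05 (767 had an unadjusted p under 0.05), 14 with a higher and 4 with a lower HF-to-MF ratio in astrocyte nuclei. Reln was among them, with 123, 118, 124 and 130 CPM in other nuclei of MF1, MF2, HF1 and HF2, a difference between the classes of 1.79 ± 0.35 (FDR 0.00145), which was 0.36 (FDR 1) without clusters 4, 6 and 7. Epha6 (1.35 ± 0.22) held 136, 205, 507 and 408 CPM in astrocyte nuclei and 2347 to 2784 CPM in others. Cntnap2, Pex5l, Unc5d and Adarb2, also on the list, are known from neurons, and Cntnap2 and Pex5l stood at 4427 and 1109 CPM in cluster 4. Ptgds (-2.37 ± 0.26) and Hmcn1 (-3.77 ± 0.75), with 8207 and 582 CPM in cluster 7, were high in MF2. Without clusters 4, 6 and 7, 3 genes were called, Htr2c, Kcnq5 and March1, of which Htr2c was among the 18. The term was then 0.18 for Cntnap2, 0.04 for Pex5l, 0.28 for Ndst3, -0.22 for Unc5d and -0.57 for Ptgds, and it turned to -0.31 for Epha6, each with an FDR of 1. Other genes kept a term of similar size without being called, with 1.71 for Adarb2 (FDR 1), 1.58 for Elmo1 (FDR 1) and 2.26 for C1qa (FDR 0.0789). The terms of Hs3st5, Bfsp2 and Hmcn1, which had at most 2 UMIs in at least 2 astrocyte libraries, kept their direction and were not called either. The SE of this fit were small beside those of the diet test in astrocyte nuclei alone, 0.26 against 0.90 for Ptgds, 0.28 against 0.60 for Adarb2 and 0.36 against 0.69 for Htr2c. Both fits took most of their estimate of the spread from across genes. The p-values of the joint fit may be too small for genes whose libraries of 1 diet differ as much as those of Ptgds. No gene of the 18 stayed under FDR 0.05 in each fit that left out 1 library, and DESeq2 called 1, Epha6. Leaving out MF1, MF2, HF1 or HF2 gave 46, 112, 33 and 12 genes.

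Accessibility of single regions in astrocyte nuclei showed no called diet difference. Of 64139 regions with enough counts 0% were called by edgeR at FDR under 0.05, DESeq2 called 0, and 1927 had an unadjusted p under 0.05. Leaving out single libraries gave 0 to 82, with 82 without MF2, 10 without HF2 and 5 without MF1. The region over the Gja1 start had an estimate of 0.59 and those over the other 6 starts lay between -0.35 and 0.12, none called. The shallowest library, MF1, gave 2459688 ATAC counts over 186 nuclei to these estimates.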

How the data were processed

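Raw UMI counts and ATAC counts per peak, with peaks called per library, were deposited by the authors, who used Cell Ranger ARC on mm10. A nucleus was kept when it had 1000 to 70000 ATAC counts, 500 to 7000 genes and less than 2% of its UMIs from mitochondrial genes, which left 11518 of 14297. Overlapping peaks were joined across libraries (253724 regions), and the 154783 seen in every library were used. Genes were placed on the GRCm38 annotation (GENCODE), which matched 97.2% of features. Counts were summed per library and class and tested with edgeR 4.0.16 (quasi-likelihood test, TMM factors, filterByExpr, Benjamini-Hochberg adjustment), with the library as a block between classes of nuclei, on R 4.3.3. DESeq2 1.42.0 was an alternative. RNA levels are CPM, and 10 CPM was added for log2 differences. Clusters used Scanpy 1.11.5 (2000 variable genes, 15 components, 15 neighbours, Leiden resolution 0.5). Doublets were scored with Scrublet and kept in. The scripts were checked on simulated data. Astrocyte totals were 646891 to 1894747 UMIs and 2459688 to 7171170 ATAC counts per library, and values of low genes carry the counting error of few UMIs.

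Named genes were the rule genes, members of role lists, the 20 largest RNA differences, the 10 smallest diet p-values and the genes called in the joint diet fit. Members and lists were chosen with earlier results of these data known. Alternatives left out each library in turn, changed the scaling, the filter, the number of rule genes, doublets, the fold minimum, the block and the set of regions. Those without clusters 4, 6 and 7, and the test of cluster 5, were chosen after seeing the data. Results for some genes and 1 region are not reported here.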

Additional observations from a re-analysis of the deposited data

Results flagged for a closer look

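A joint edgeR fit called 18 genes at FDR under 0.05 for its class-by-diet term, which compares the HF-to-MF difference of RNA in astrocyte nuclei with that in all other nuclei. The calls are weak, since DESeq2 called 1 of them, none stayed under FDR 0.05 in each fit without 1 library, and the SE were below those of astrocyte nuclei alone (0.26 against 0.90 for Ptgds). The term, on the log2 scale, was above 0 for Hs3st5 (3.84), Bfsp2 (3.49), Htr2c (2.23), Ndst4 (2.20), C1qa (2.08), Ndst3 (1.94), Adarb2 (1.81), Reln (1.79), Fras1 (1.37), Epha6 (1.35), Pex5l (1.26), Elmo1 (1.24), Cntnap2 (1.12) and Cnksr2 (0.94). It was below 0 for Hmcn1 (-3.77), Ptgds (-2.37), Unc5d (-1.55) and Pdzrn4 (-1.17). In astrocyte nuclei of MF1, MF2, HF1 and HF2, Ptgds held 32.5, 413, 187 and 28.4 CPM and Hmcn1 1.55, 42.8, 1.58 and 0.79 CPM, so MF2 was the high library for both. Adarb2 held 95.8, 23.8, 118 and 317 CPM, and C1qa, a gene of microglia, 4.64, 5.71, 21.6 and 11.9 CPM. Without RNA clusters 4, 6 and 7 of the astrocyte nuclei, which were led by genes of neurons or fibroblasts, 1 of the 18, Htr2c, was called. The term kept its direction and at least a similar size for some that were not, such as Adarb2 (1.71), Elmo1 (1.58) and C1qa (2.26), and was near 0 or reversed for others, such as Pex5l (0.04) and Epha6 (-0.31). Each library rested on 186 to 574 astrocyte nuclei, and no cause was tested.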

How the results depend on the processing

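The alternatives that leave out clusters 4, 6 and 7 and those on cluster 5 were added after seeing the data. Between astrocyte and other nuclei, single genes kept direction and side of the threshold in 265 of 266 alternative values against other nuclei and in 259 of 266 against OPC nuclei, where Gpc5 (-0.15 to 0.0085 without 1 library), Slc6a9 (-0.028 to 0.047) and Aldh5a1 (-0.0093 to 0.14), none of them called, changed sign. Without the fold minimum, 16765 and 8849 genes were called in place of 10051 and 5415. Leaving out 1 library gave 9661 to 9999 genes, 5204 to 5386 genes and 77671 to 83495 regions.

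In the diet comparisons the RNA count of 0 became 31 with no filter on low counts, 17 with nuclei as replicates (Wilcoxon) and 0 to 61 without 1 library. The region count of 0 became 2 with no filter and 0 to 82 without 1 library. The joint fit's 18 genes became 30 with RLE factors, 4 and 33 with 2 or 4 rule genes, 39 without doublet scores over 0.05, 3 without clusters 4, 6 and 7, 1 with DESeq2 and 12 to 112 without 1 library. Without clusters 4, 6 and 7 the diet difference was -0.27 for Epha6 and -0.049 for Cnksr2, and the joint term was -0.31 for Epha6, -0.44 for Ndst4, 1.09 for Pdzrn4 and -0.13 for Cnksr2. For Pdzrn4 it was -1.71 to 0.22 without 1 library, with 0.22 without MF2. The difference in share was 1.75 to 8.18 points without 1 library, and the diets no longer overlapped without clusters 4, 6 and 7 or as a share of all deposited nuclei. The cause of these changes was not tested.

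Accessible genes of cluster 0 numbered 357 without the fold minimum, 23 against astrocyte nuclei outside clusters 4, 6 and 7 and 57 to 322 without 1 library. Those of cluster 1 numbered 348, 72 and 56 to 149. Cluster 2 gave 0 against that reference and 22 to 77 without 1 library. Cluster 3 gave 107 with no filter, 0 against that reference and 8 to 83. Cluster 5 gave 381 with no library block and 14 to 66. At resolutions 0.3 and 0.8 there were 5 and 12 clusters, whose adjusted Rand indices with the 8 clusters used, where 1 means the same membership, were 0.497 and 0.523.

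The labels number the libraries 1 and 2 in each diet but do not say that a number pairs them. Deviations of libraries 1 and 2 from their diet means correlated at r = 0.282 over 10578 genes, which are not independent. With the replicate block 1 gene in RNA and 1 region were called.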
